A study of Homo sapiens with 6 samples.

Results

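The genes described here are the 126 long intergenic noncoding RNA genes with a LINC symbol of 5 digits that were selected on their level alone: they averaged at least 3 CPM (the raw count over the library's total, scaled to a common depth) across the 6 libraries of the study. They were taken from 2091 names of that form among 48183 gene names, which stand for 61196 Ensembl identifiers, and identifiers that share a name were summed. The rule left out 1 further gene of this name form. Of the 2091 names, 111 had no count in any library, and 342, the members among them, averaged at least 1 CPM. Since 4 of the 6 libraries were naive, the mean weighed naive cells more heavily: 76 members reached 3 CPM in both the naive and the primed mean, 41 in the naive mean only and 9 in the primed mean only. The members just inside the limit were LINC02211 and LINC01116, both at 3.01 CPM, and the genes just outside were LINC01962 at 2.99 and LINC01881 at 2.90 CPM.

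The study asked whether primed human embryonic stem cells can be converted to the naive state, the earlier of the 2 pluripotent states, by 5-aminoimidazole-4-carboxamide ribonucleoside (AICAR, an activator of AMP-activated kinase) or by a constitutively active form of the stress kinase p38 (CA-p38). RNA-seq was done on 4 naive and 2 primed cultures. The naive libraries were AICAR 1 and AICAR 2 (EOS cells treated with AICAR), VPA (EOS cells treated with valproic acid, a histone deacetylase inhibitor) and CA-p38 (EOS cells carrying doxycycline-inducible CA-p38, treated with doxycycline). The primed libraries were primed EOS and primed CA-p38, the untreated parents of both lines. All 6 came from 1 embryonic stem cell line, named H1 in the labels and H9 in the published methods. All carry EOS, a green fluorescent reporter that the paper describes as reading the distal enhancer of Oct4, preferred in naive cells. After conversion the naive cells were grown for several passages on mouse feeder cells in PXGL, a medium with inhibitors of MEK, tankyrase and protein kinase C plus LIF. By the published account AICAR and doxycycline were withdrawn before or early in this growth, and VPA was an addition for induction. The naive cells were then sorted for the naive surface proteins CD75 and SUSD2. The primed cells grew without feeders in StemFit, so state, medium, feeder and sorting cannot be told apart. No label says that AICAR 1 and AICAR 2 were separate conversions, and the published legend gives the AICAR samples as successive passages, so the p-values measure the spread between these cultures, which may be partly technical.

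LINC symbols are given to RNA genes that lie between protein-coding genes and have no named function, so most members have no known role. Long noncoding RNAs are usually spliced and polyadenylated, are made at lower levels and in fewer cell types than messenger RNAs, and several act on genes beside them on the chromosome. In pluripotent cells many begin in the long terminal repeats of endogenous retroviruses, and their repertoire differs between naive and primed cells.

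Library totals ran from 46823699 to 54277064 counts, and the members held 0.149 to 0.195% of them. The marker genes of the 2 states separated the libraries as labelled: 8 of 8 naive markers were higher in naive cells, with sums of 5066 to 5989 TMM-scaled CPM against 8.50 to 12.3, and 6 of 6 primed markers were lower, with sums of 39.9 to 50.5 against 2727 to 3303. The summed fibroblast markers were at 30.8 to 72.8 CPM in naive and 175 to 192 in primed libraries, trophoblast markers at 7.16 to 10.2 and 3.82 to 4.99, neural markers at 2.23 to 3.80 and 14.9 to 15.96, and mesoderm markers at 11.8 to 15.4 and 4.60 to 7.87. Endoderm markers summed to 16.8 to 18.4 CPM in naive libraries, and to 8.66 and 36.5 CPM in primed EOS and primed CA-p38. These sums hide genes that moved apart. Of 6 fibroblast markers 3 were lower and 0 higher, and COL3A1 was at 3.57 to 16.6 CPM in naive and 4.75 and 2.19 in primed libraries. Of 5 endoderm markers GATA4 was higher (log2 fold change 4.51), and SOX17 and FOXA2 were lower (-3.50 and -4.14). Of 5 neural markers tested 2 were lower, DCX and MAP2, and 0 higher. The part of these markers' cell types in the LINC values was not tested. Primed EOS stood apart in breadth: it detected 1859 LINC names where the other libraries detected 1238 to 1266. In bulk RNA, fewer cells making a transcript and less transcript per cell cannot be told apart.

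The promoters of the members that differed most between the states are shown first, as the starts of the genes on which the comparison below turns. They are the RefSeq promoters (GRCh38.p14, 250 bases before to 50 after the start) of the 3 members with the largest rise and the 3 with the largest fall in naive cells, among those whose RefSeq and GENCODE starts lie within 100 bases of each other. Each is written 5′ to 3′ on the gene's strand, and capitals mark TATAAA, the core of the TATA box, and CCNCNCCC on either strand, the letters bound by KLF and SP factors.
The 3 members higher in naive cells:
LINC01508 (chr9:90433440-90433739, minus strand): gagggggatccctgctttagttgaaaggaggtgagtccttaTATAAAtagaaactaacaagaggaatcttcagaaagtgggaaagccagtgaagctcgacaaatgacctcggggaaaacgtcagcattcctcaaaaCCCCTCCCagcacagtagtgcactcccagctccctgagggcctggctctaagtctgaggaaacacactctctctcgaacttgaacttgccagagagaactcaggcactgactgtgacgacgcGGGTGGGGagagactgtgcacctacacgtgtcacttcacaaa
LINC02043 (chr3:186825472-186825771, minus strand): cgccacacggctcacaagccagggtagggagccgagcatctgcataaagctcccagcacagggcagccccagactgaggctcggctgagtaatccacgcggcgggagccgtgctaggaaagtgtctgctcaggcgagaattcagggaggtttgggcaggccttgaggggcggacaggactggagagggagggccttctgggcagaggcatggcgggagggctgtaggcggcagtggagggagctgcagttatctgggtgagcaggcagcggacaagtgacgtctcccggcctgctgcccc
LINC02821 (chr12:70180077-70180376, plus strand): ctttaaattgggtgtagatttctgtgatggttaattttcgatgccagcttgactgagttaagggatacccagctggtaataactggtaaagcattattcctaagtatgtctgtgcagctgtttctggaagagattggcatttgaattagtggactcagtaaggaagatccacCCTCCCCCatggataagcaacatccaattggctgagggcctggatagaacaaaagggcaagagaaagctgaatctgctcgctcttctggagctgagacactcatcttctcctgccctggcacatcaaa
The 3 members lower in naive cells:
LINC00623 (chr1:120912967-120913266, plus strand): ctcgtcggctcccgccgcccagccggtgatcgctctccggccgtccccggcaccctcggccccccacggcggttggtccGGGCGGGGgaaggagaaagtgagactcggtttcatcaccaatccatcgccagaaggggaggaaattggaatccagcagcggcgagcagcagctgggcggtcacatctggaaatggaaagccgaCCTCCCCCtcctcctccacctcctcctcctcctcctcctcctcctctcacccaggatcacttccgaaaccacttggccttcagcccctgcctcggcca
LINC02700 (chr11:94637793-94638092, plus strand): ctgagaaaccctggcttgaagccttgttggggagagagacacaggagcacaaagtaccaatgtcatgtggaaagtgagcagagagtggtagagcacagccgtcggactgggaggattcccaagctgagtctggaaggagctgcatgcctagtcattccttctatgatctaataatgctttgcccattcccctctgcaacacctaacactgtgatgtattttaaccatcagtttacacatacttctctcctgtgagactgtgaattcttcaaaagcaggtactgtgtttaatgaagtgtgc
LINC01356 (chr1:112850594-112850893, minus strand): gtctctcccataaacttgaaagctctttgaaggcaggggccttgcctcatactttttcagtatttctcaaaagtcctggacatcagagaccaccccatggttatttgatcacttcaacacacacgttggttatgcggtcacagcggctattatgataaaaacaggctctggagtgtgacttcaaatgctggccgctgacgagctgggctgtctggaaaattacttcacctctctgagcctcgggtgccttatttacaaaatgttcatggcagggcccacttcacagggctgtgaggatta

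LINC01508 alone of the 6 held TATAAA, and LINC01508, LINC02821 and LINC00623 held CCNCNCCC. The window of LINC00623 was 66.0% GC with a CpG ratio (observed over expected CpG) of 0.708, and that of LINC02043 was 65.3% GC with a ratio of 0.491. The other 4 were 45.0 to 51.0% GC with ratios of 0.123 to 0.410. A RefSeq promoter was found for 85 of the 126 members, 26 of them higher in naive cells, 17 lower and 42 not past the threshold. For these 85 no limit was set on the distance between the RefSeq and GENCODE starts. It reached 410195 bases for LINC01524 and 205699 for LINC01885, so some windows may not be the start in use. TATAAA stood in 11.8% of the 85, against 16.3% of 1737 LINC promoters and 11.6% of all 34796 promoters. CCNCNCCC stood in 55.3%, against 33.1% of LINC promoters and 56.1% of all, and by direction in 14 of 26 higher, 8 of 17 lower and 25 of 42 other members. A CpG ratio of at least 0.6, the mark of a CpG island, was met by 8 of 26 higher, 8 of 17 lower and 19 of 42 other members, together 41.2%, against 17.2% of LINC promoters and 48.8% of all. The well expressed LINC genes were thus nearer to all promoters than to LINC promoters in CpG content and in this motif, and the shares with CCNCNCCC by direction were 53.8, 47.1 and 59.5%. CCAAT, the NF-Y box, stood in 13 of 26 higher, 10 of 17 lower and 15 of 42 other members, against 34.6% of all promoters. GCCNNNGGC, the TFAP2 letters, stood in 6 of 26, 4 of 17 and 10 of 42, against 23.2% of all, and the octamer ATGCAAAT, bound by OCT4, in 2 of the 85, against 1.76% of all. Windows with at least 10 further copies in the genome, of 80% identity over 150 bases, as in repeat families, were found for 10 of the 85, of which 2 were higher and 1 lower.

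Naive and primed cells were compared over all 26497 gene names that passed the filter on low counts. Fold changes are log2 of naive over primed, and a gene counts as changed at an adjusted p under 0.05 (edgeR, quasi-likelihood fit, Benjamini-Hochberg method over all features). All 126 members were tested: 45 were higher in naive cells, 29 were lower and 52 did not pass the threshold. Of all features 6893 were higher and 7165 lower, or 53.1% in either direction. Over the 14180 features with a mean of at least 3 CPM 30.4% were higher and 38.2% lower, or 68.6% in either direction. A smaller share of members than of these features passed. The 2 sets have only the lower limit in common and were not matched in level, and the part of level in this difference was not tested. The median log2 fold change of the members was 0.31, against 0.11 over all features and -0.10 over features of at least 3 CPM. Among the 76 members at or over 3 CPM in both states, 13 were higher and 22 lower, with a median of -0.20, so the lean toward naive cells lay with members that the naive mean alone brought in, which the rule favours. Of those 41, 32 were higher and 0 lower, and of the 9 that the primed mean brought in, 7 were lower. Past the threshold, changes of at least 2-fold were found for 35 higher and 20 lower members, and of at least 4-fold for 21 and 9. Of the 14180 features of at least 3 CPM, 2419 were higher and 2756 lower at 2-fold, and 1142 and 1165 at 4-fold. Of the 76 members at or over 3 CPM in both states, 8 were higher and 13 lower at 2-fold, and 3 and 3 at 4-fold.

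**Figure D1:**
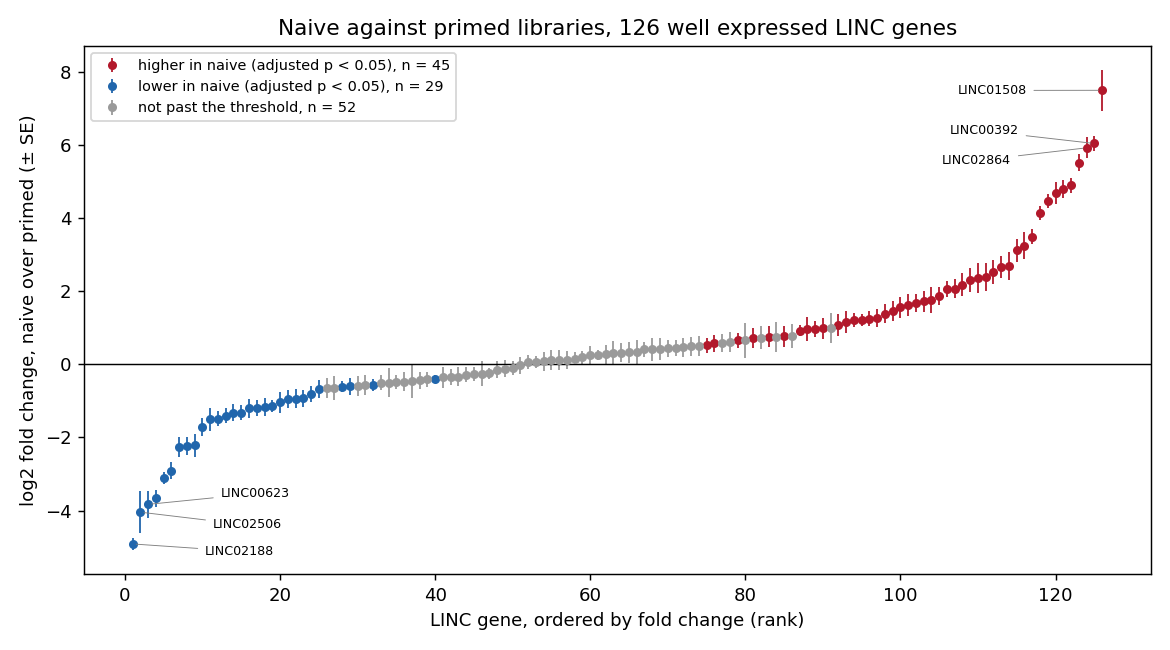
Log2 fold change (naive over primed, vertical axis, with the standard error of the fit as bars) of the 126 LINC genes, ordered by size along the horizontal axis. Red points are the 45 members higher in naive cells, blue points the 29 lower and grey points the 52 not past the threshold, and the largest changes are 7.49 for LINC01508 and -4.91 for LINC02188.

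The 4 naive libraries lay wholly above the 2 primed ones in 55 members and wholly below in 36, together 72.2%, against 64.9% of all features and 77.3% of those of at least 3 CPM. Summed over the 45 higher members, the level was 718 to 834 TMM-scaled CPM in naive and 142 to 157 in primed libraries. Summed over the 29 lower members it was 410 to 522 in naive and 970 to 974 in primed libraries. The 52 others summed to 397 to 529 and 438 to 458, and the whole set to 1525 to 1839 in naive and 1550 to 1589 in primed libraries, ranges that overlap. The summed level of the whole set thus overlapped between the states. The higher and lower groups were formed from calls in these same libraries, so the separation of their sums follows from the grouping and is no further result.

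Below the limit the picture was different. Over features of every kind the median log2 fold change was 0.11, and over those of at least 3 CPM it was -0.10. Features under 3 CPM thus leaned further toward naive cells in general. They were not counted apart, so how the lean of LINC genes compares with theirs was not tested. Of the 758 LINC genes tested under 3 CPM, 25.5% were higher in naive cells and 7.39% lower, with a median log2 fold change of 0.80. Those 758 are the part of 1964 names that passed the filter on low counts. The filter asks for enough counts in as many libraries as the smaller state holds, which is 2. Genes made in naive cells had 4 libraries in which to meet it, and genes made in primed cells 2. The part of this filter in the lean was not tested. The calls under 3 CPM were 193 genes higher and 56 lower. Fewer were called with either primed library left out, though more genes were then tested, 891 without primed EOS and 934 without primed CA-p38. Such fits hold 1 primed library, which is assumed to vary as the naive ones do. Fewer members were called in these fits as well, and how far the counts of each set moved was not compared.

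The 12 members with the largest rise in naive cells were at 4.52 CPM or less in both primed libraries. LINC01508, on chromosome 9 (GRCh38, chr9:90300885-90433566), was read 345, 288, 263 and 329 times in AICAR 1, AICAR 2, CA-p38 and VPA, against 3 reads for primed EOS and none for primed CA-p38. Scaled for library size, this is a ratio of 194, with a 95% counting interval of 66.3 to 943 (adjusted p = 1.58e-07, edgeR). Its role is not known, and the promoter printed above carried the only TATAAA of the 6.

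LINC00392, on chromosome 13 (chr13:73564244-73588070), was at 61.4, 57.4, 47.9 and 47.0 CPM in AICAR 1, AICAR 2, CA-p38 and VPA, and at 0.828 and 0.797 in primed EOS and primed CA-p38. All 4 naive values lay far above both primed ones, with a log2 fold change of 6.03 ± 0.21 (SE, adjusted p = 2.04e-10). LINC02864, on chromosome 18 (chr18:73151241-73264480), was at 26.5, 30.2, 24.8 and 19.7 CPM in the naive libraries, in the same order, and at 0.323 and 0.511 in the primed ones, a log2 fold change of 5.92 ± 0.29 (adjusted p = 3.26e-09). VPA was the lowest naive library for both genes and still lay far above the primed pair.

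LINC02043, on chromosome 3 (chr3:186810880-186825521), was at 83.6, 85.1, 74.9 and 74.3 CPM in naive and 1.21 and 2.27 CPM in the primed pair (log2 fold change 5.51 ± 0.23, adjusted p = 9.46e-10). Some of its 1832 exonic bases are shared with 3 other genes at 97% identity or more, the longest stretch being 294 bases, so part of its count could belong to a copy. LINC02821, on chromosome 12 (chr12:70180338-70202004), was at 56.9, 46.9, 44.7 and 41.3 CPM in naive and 1.76 and 1.43 in primed libraries (4.89 ± 0.21, adjusted p = 9.62e-10), and 238 of its 578 exonic bases match another gene. LINC01160, on chromosome 1 (chr1:111599655-111608723), was at 79.8, 70.8, 63.7 and 66.0 CPM against 3.37 and 1.72 (4.78 ± 0.25, adjusted p = 5.82e-09). In all 3 genes the spread within a state was small beside the gap between states.

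LINC00665, on chromosome 19 (chr19:36259540-36331770) and described mainly in tumour cells, was at 80.1, 94.0, 77.6 and 64.2 CPM in naive and at 4.48 and 4.52 in primed cells, with a log2 fold change of 4.13 ± 0.18 (adjusted p = 1.37e-09). It lies in the zinc finger gene region of that chromosome. LINC00624, on chromosome 1 (chr1:147258885-147517875), was at 25.99, 30.1, 25.5 and 28.9 CPM against 1.11 and 1.39 (4.46 ± 0.20), and 210 of its bases overlap exons of CHD1L on the other strand. LINC01067 stood at 11.6 to 13.0 CPM against 0.343 and 0.613 (4.68 ± 0.29), with 237 bases that match PIGL, and LINC01445 at 21.1 to 28.4 CPM against 2.12 and 2.29 (3.48 ± 0.20). LINC02484 at 4.74 to 8.01 CPM against 0.465 and 0.797 (3.24 ± 0.37) and LINC01836 at 4.45 to 5.96 CPM against 0.525 and 0.715 (3.11 ± 0.32) closed the 12 largest rises. The 12 had adjusted p of 9.19e-06 or lower.

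The 12 members with the largest fall were at 0.0920 to 10.1 CPM in naive cells. LINC02188, on chromosome 16 (chr16:86710122-86742083), was at 1.69, 1.45, 1.38 and 1.20 CPM in AICAR 1, AICAR 2, CA-p38 and VPA, against 45.1 and 41.3 CPM in the primed pair, EOS first (log2 fold change -4.91 ± 0.17, adjusted p = 1.95e-10). LINC02506, on chromosome 4 (chr4:31997376-32228543), was at 0.0920, 0.805, 0.613 and 1.79 CPM in the naive libraries and at 13.1 and 14.2 in the primed ones (-4.04 ± 0.57, adjusted p = 5.79e-05). The naive libraries differed 19.5-fold among themselves for LINC02506, the widest spread of any member, with AICAR 1 lowest and VPA highest.

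LINC02700, on chromosome 11 (chr11:94638045-94652884), was at 4.27, 2.76, 2.59 and 2.21 CPM in naive and 43.1 and 32.2 in primed libraries (-3.67 ± 0.23, adjusted p = 3.46e-08). LINC01356, on chromosome 1 (chr1:112820170-112850643), was at 6.59, 7.97, 7.30 and 5.63 CPM against 50.7 and 67.9 (-3.11 ± 0.17, adjusted p = 7.37e-09). LINC01618, on chromosome 4 (chr4:52712394-52866821), was at 3.75, 3.36, 1.998 and 3.69 CPM against 24.4 and 23.7 (-2.91 ± 0.23, adjusted p = 2.86e-07), and 1621 of its exonic bases are shared with exons of RASL11B on the same strand, so its reads cannot be fully told from that gene's. The naive means of these 3 genes were 0.0785 to 0.133 of their primed means.

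LINC00623 fell from 13.3 and 9.71 CPM to 0.362 to 1.30 (-3.83 ± 0.37) and LINC00869 from 9.61 and 6.72 to 1.29 to 2.70 (-2.22 ± 0.31), but both belong to duplicated chromosome 1 sequence. LINC00623 shares up to 529 bases with 2 genes, and all 870 exonic bases of LINC00869 match a copy, so which copy gave the reads is uncertain. LINC01963 went from 6.91 and 8.09 CPM to 1.12 to 1.98 (-2.27 ± 0.27), LINC02474 from 10.4 and 10.1 to 1.69 to 2.85 (-2.24 ± 0.25), and LINC00960 from 6.56 and 7.09 to 1.51 to 3.58 (-1.51 ± 0.31). LINC00458, known from human pluripotent stem cells, was at 5.46, 5.61, 6.21 and 7.75 CPM in naive and 14.9 and 20.3 in primed libraries (-1.49 ± 0.20, adjusted p = 4.32e-05). LINC00923 was at 6.59 to 10.1 CPM in naive libraries, against 18.5 and 37.8 for primed EOS and primed CA-p38 (-1.71 ± 0.25, adjusted p = 7.49e-05), so the primed cultures differed by about 2-fold. The 12 largest falls had adjusted p of 0.00111 or lower.

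**Figure D2:**
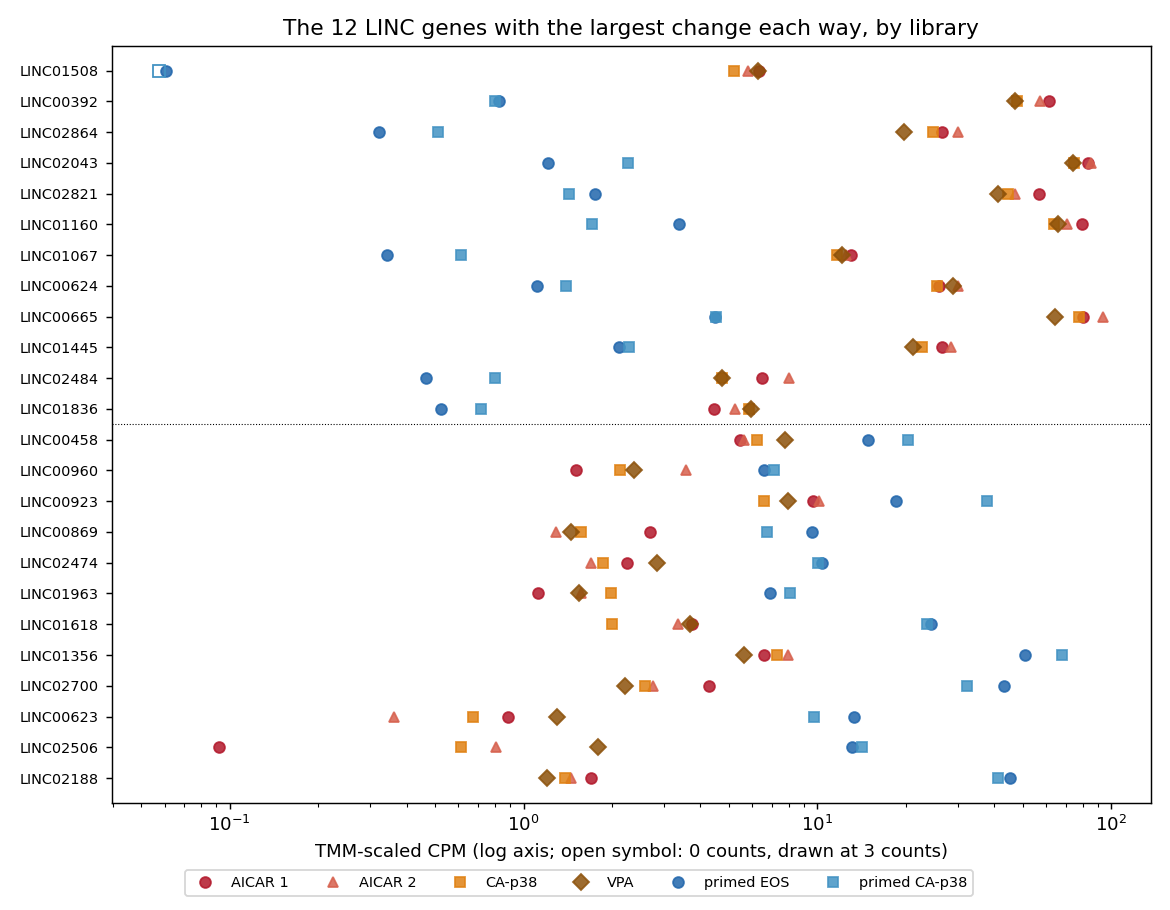
TMM-scaled CPM (log axis) in each library for the 12 LINC genes with the largest rise (above the dotted line) and the 12 with the largest fall in naive cells. Warm symbols are the 4 naive and blue symbols the 2 primed libraries, and the open square is the 0 count of LINC01508 in primed CA-p38, drawn at 3 counts. The 24 genes were chosen among members past the threshold whose 2 states do not overlap, so the separation shown follows from that choice.

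The 3 members with the highest mean CPM were lower in naive cells. LINC02582, on chromosome 18 (chr18:73324941-73349879), was at 197, 198, 221 and 179.8 CPM in AICAR 1, AICAR 2, CA-p38 and VPA and at 284 and 239.6 in primed EOS and primed CA-p38 (-0.40 ± 0.11, adjusted p = 0.00844). LINC00882, on chromosome 3, was at 87.0, 87.2, 105 and 61.1 CPM against 184 and 192 (-1.14 ± 0.16, adjusted p = 5.19e-05). LINC02617, on chromosome 12 among the natural killer receptor genes, was at 62.6, 72.8, 89.6 and 61.4 CPM against 101 and 117 (-0.61 ± 0.15, adjusted p = 0.00374). The states did not overlap in any of the 3, and CA-p38 was the naive library nearest to the primed ones each time. The call of LINC02582 was lost without primed EOS (adjusted p = 0.115) and that of LINC02617 without primed CA-p38 (adjusted p = 0.0553).

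Since long transcripts give more reads, levels of different genes are set side by side per kilobase of exon. On that scale LINC02617 led, at 129.7 CPM per kb over its 649 exonic bases, followed by LINC02582 at 88.2, LINC02821 at 55.6, LINC01160 at 34.5, LINC00392 at 33.0 and LINC02043 at 29.2. LINC00882 fell to rank 18, at 6.41 CPM per kb over 18617 exonic bases, and LINC00665 to rank 24, at 4.45 over 12167. Of these 6 leaders 4 were at 3.37 CPM or less in primed cells, where the leading pair was LINC02617 and LINC02582. The 5 members with the highest counts made up 28.9 to 37.1% of all member reads in each library. Exonic lengths of the 126 ran from 181 to 33198 bases, with a median of 5546.

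**Figure D3:**
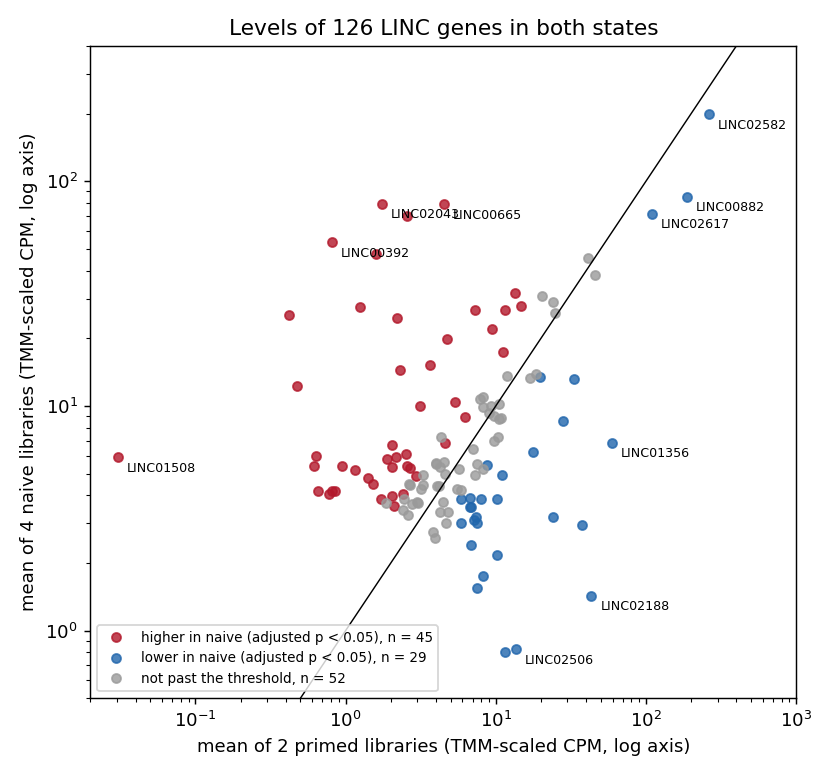
Mean level of each of the 126 LINC genes in the 4 naive libraries (vertical axis) and the 2 primed libraries (horizontal axis), both as TMM-scaled CPM on log axes, with the line of equal levels. LINC02582, LINC00882 and LINC02617 lie farthest to the right, below the line, and the members higher in naive cells spread far to its left, LINC01508 farthest at a primed mean of 0.0303 CPM.

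Among abundant members that did not pass the threshold, LINC01578 stood out for its known role: as CHASERR it restrains its neighbour CHD2, a chromatin remodeller. It was at 44.4, 41.9, 35.6 and 31.7 CPM in naive and 44.9 and 46.2 in primed libraries (-0.25 ± 0.14, adjusted p = 0.171), and CHD2 was at means of 109 and 103 CPM (0.07 ± 0.12, adjusted p = 0.616). LINC01002 was at 45.4, 56.1, 47.1 and 33.3 CPM against 39.9 and 41.9 (0.15 ± 0.17), within the naive spread. LINC01224, in a zinc finger gene cluster of chromosome 19, was at 25.6 to 30.8 CPM against 24.7 and 23.6 (0.26 ± 0.13), which do not overlap, though the adjusted p was 0.123. LINC01873 was at 22.0 to 40.9 CPM against 16.5 and 24.4 (0.59 ± 0.24, adjusted p = 0.0577), and with the parental line as a block it passed (0.71, adjusted p = 0.0236). It passed in 8 of 15 alternative fits. LINC01001 was at 24.1 to 29.96 against 21.9 and 27.96 (0.06 ± 0.15). LINC01001 shares up to 2159 bases with 13 other genes, so its count is uncertain.

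Of 20 LINC genes listed for being well known from earlier work, 9 were members. LINC00511, described mainly in tumours, was at 5.25 to 6.69 CPM in naive and 2.38 and 1.39 in primed libraries (1.62 ± 0.29, adjusted p = 0.000415), and LINC00173 at 3.18 to 5.78 against 1.84 and 0.981 (1.75 ± 0.36, adjusted p = 0.00114). LINC00665 rose and LINC00458 fell, as given above. LINC00641 was at 11.9 to 16.1 CPM in naive and 18.7 and 20.9 in primed libraries (-0.56 ± 0.17, adjusted p = 0.0125), a call lost without primed CA-p38 (adjusted p = 0.117). LINC00467, LINC00205, LINC00662 and LINC00667 did not pass the threshold, with log2 fold changes of 0.45, -0.35, -0.48 and -0.42, though LINC00662 passed in 6 of the 15 alternative fits. LINC00632, chosen after its values were seen as the locus that also yields the circular RNA CDR1-AS, was at 8.82 to 12.5 CPM against 5.74 and 4.93 (0.97 ± 0.22, adjusted p = 0.00211), counts that do not tell the linear from the circular form.

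For comparison, a list of 26 long noncoding RNAs with other names was tested in the same fit: 12 were higher in naive cells and 10 lower, with a median log2 fold change of 0.12. MEG3, an imprinted RNA, was at 412 to 838 CPM in naive and 0.767 and 1.001 in primed libraries (9.42, adjusted p = 3.64e-10). LNCPRESS1 was at 110 to 127 CPM against 18.6 and 21.5 (2.53), and among the falls TUNAR was at 3.07 to 4.37 against 64.8 and 50.3 (-4.00) and FIRRE at 4.33 to 6.24 against 44.5 and 49.0 (-3.18). ESRG, a transcript of human pluripotent cells, was at 1321 to 1785 CPM against 2885 and 2933 (-0.90, adjusted p = 1.30e-05). A larger share of this list than of the members passed, 22 of 26 against 74 of 126, and no test of that difference was made.

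The members moved alike in both parental lines. The fold of AICAR 1, AICAR 2 and VPA over primed EOS and that of CA-p38 over primed CA-p38, which share no library, had a Pearson correlation of 0.962 and a Spearman correlation of 0.946 across the 126 members, a description over genes that are not independent replicates. Past 2-fold in both lines were 52 members, 33 up and 19 down, and all 52 moved the same way. The same figures were not taken over all features, so an agreement particular to LINC genes is not shown. The sign was the same in 117 members and opposite in 9, whose folds lay between -0.49 and 0.60. The largest gaps were LINC01508, at 6.44 and 8.99, where primed CA-p38 had no count, LINC02609 at 0.40 and 1.97, LINC00923 at -1.004 and -2.52, and LINC02267 at 3.45 and 2.04. With a term for the difference between lines in the same edgeR fit, 0 members passed the threshold and 5 had an unadjusted p under 0.05, and of all 26497 features 1 passed and 853 had an unadjusted p under 0.05. The CA-p38 line has 1 library a state, so this term rests on very few cultures.

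**Figure D4:**
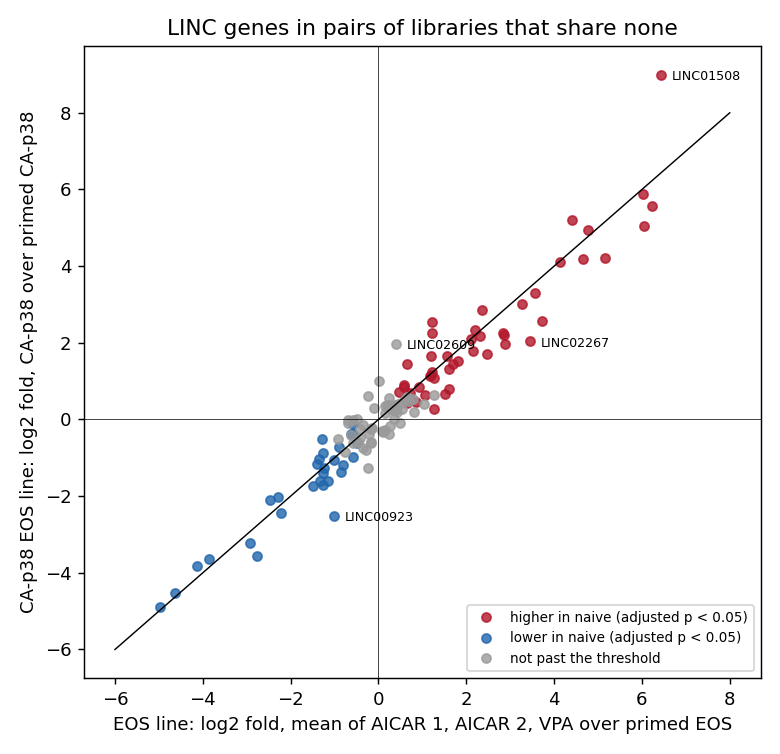
Log2 fold, naive over primed, of the 126 LINC genes in the EOS line (horizontal axis, mean of AICAR 1, AICAR 2 and VPA over primed EOS) and in the CA-p38 EOS line (vertical axis, CA-p38 over primed CA-p38), with the line of equal change. The points follow the line, and the 4 labelled genes lie farthest from it.

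Differences within a state were not tested, since they set 1 library against 1 or 3 others, and are given as folds. Between primed EOS and primed CA-p38, 4 members were over 2-fold higher in the first and 5 in the second, together 7.14%, where 2.55% of features of at least 3 CPM differed as much. Those features were not matched to the members in level, and the part of level in this difference was not tested. LINC02609 was at 2.87 CPM for primed EOS against 0.858 for primed CA-p38, a ratio of 3.34 with a 95% counting interval of 2.35 to 4.83, and LINC02067 at 3.51 and 1.37, a ratio of 2.57 (1.93 to 3.46). LINC01722 went the other way, at 2.54 and 6.09 CPM, a ratio of 0.418 (0.337 to 0.516), as did LINC02267, at 0.384 and 0.920, a ratio of 0.417 (0.230 to 0.728), and LINC00923, at 0.488 (0.451 to 0.529). LINC01508 counted among the 4 with 3 reads against 0, which is at the floor. The intervals cover counting error only. Between the states LINC02609 and LINC01722 did not pass (adjusted p = 0.0560 and 0.140), and both passed with the parental line as a block (0.97 and 1.06, adjusted p = 0.0437 and 0.0333).

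Among naive libraries the highest value was a median of 1.52 times the lowest, and over 2 times in 15 members. VPA was the lowest of the 4 in 54 members and the highest in 21, and AICAR 2 was the highest in 57. Past 2-fold and outside the range of the other naive libraries, VPA was higher in 4 members and lower in 0. Together this was 3.17%, against 1.83% of features of at least 3 CPM, which were not matched in level. The 4 were LINC02506, at 1.79 CPM against 0.0920 to 0.805, LINC02067, at 6.45 against 2.04 to 4.29, LINC00623, at 1.30 against 0.362 to 0.883, and LINC01885, at 5.44 against 1.92 to 4.01. LINC02324 had the largest deviation downward, at 1.81 CPM against 3.11 to 3.60. For LINC02067 the states overlapped, with 3.51 and 1.37 CPM in primed EOS and primed CA-p38 (0.65 ± 0.48, adjusted p = 0.272).

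The place of the members was read from GENCODE release 44 (GRCh38). It types 119 of the 126 as long noncoding RNA, 6 as pseudogenes and 1, LINC00672, now LASP1NB, as protein-coding, and 10 carry a newer name. Copies of at least 97% identity over 200 bases were found for 22 members, 8 of them higher and 5 lower. Exons of 9 members overlap an exon of another, protein-coding gene on the same strand and of 12 on the other strand, and since it is not stated whether counting used strand, reads there cannot be told apart. The median distance from a member's start to the nearest protein-coding start was 60925 bases, and was 137265 for higher, 70677 for lower and 48436 for the other members. Chromosome 1 held 19 members, and chromosomes 4 and 13 held 5 higher members each, of 10 and 9.

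The nearest protein-coding gene could be tested for 109 members. Both genes passed the threshold in 43 pairs, of which 21 moved the same way and 22 opposite ways. Within 100 kb there were 69 pairs, 20 with both past the threshold, 9 in the same and 11 in opposite directions. Across the 109 pairs the fold changes had a Pearson correlation of 0.16 and a Spearman correlation of 0.12, given as a description, since some members share a neighbour. Of the 21 that moved together, LINC00392 lies 505239 bases from KLF5, a transcription factor of naive cells, which was at means of 181 CPM in naive and 1.57 in primed cells (log2 fold change 6.85 ± 0.19, adjusted p = 3.79e-11). LINC02188 lies 131573 bases from FOXL1, a forkhead factor at 0.0818 and 4.25 CPM (-5.65 ± 0.59, adjusted p = 3.59e-06). LINC02506 was lower together with PCDH7, a protocadherin, 1277010 bases away (-3.16 ± 0.27), and LINC01356 with SLC16A1, a lactate transporter, 105553 bases away (-1.73 ± 0.09). The pairs in this and the next paragraph were chosen after their values were seen.

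Opposite moves were as large. LINC02864 rose in naive cells where its nearest gene NETO1, a receptor accessory protein, was at 0.132 CPM against 18.9 in primed cells (-7.14 ± 0.62, adjusted p = 7.07e-07), and the same NETO1 is nearest to LINC02582 (-0.40). LINC00632 rose where SOX3 was at 0.279 against 19.7 CPM (-6.14 ± 0.32, adjusted p = 5.97e-09). LINC01206, at 20.9 to 32.1 CPM in naive and 5.53 and 9.09 in primed libraries (1.86 ± 0.25), lies 240465 bases from SOX2, a core pluripotency factor that was lower in naive cells (-0.87 ± 0.10). LINC00624 lies 23626 bases from BCL9, a Wnt coactivator (-0.998 ± 0.14). TRPC4, a cation channel gene, had one of the largest falls of all neighbours (-10.48 ± 0.40), and LINC02334 beside it did not pass the threshold (-0.34 ± 0.26).

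**Figure D5:**
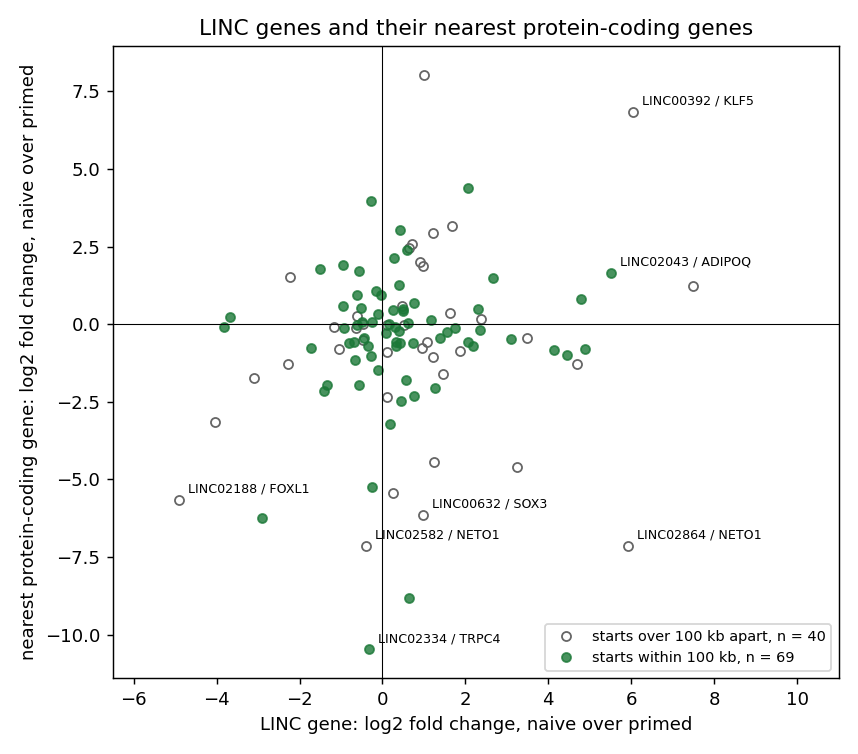
Log2 fold change, naive over primed, of 109 LINC genes (horizontal axis) and of the protein-coding gene whose start lies nearest (vertical axis). Filled points are the 69 pairs within 100 kb and open points the 40 farther apart. The points take all 4 combinations of sign, with LINC00392 and KLF5 at the upper right and LINC02864 and NETO1 at the lower right.

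A head-to-head partner, a protein-coding gene on the other strand whose start lies within 5000 bases, was found for 14 members, at a median of 478 bases. They were 2 of the 45 higher members, 3 of the 29 lower and 9 of the 52 others, shares that were not tested. In 4 pairs both genes passed the threshold, in 9 the coding gene alone and in 1 the member alone. LINC02600, at 10.9 to 18.8 CPM in naive and 2.91 and 1.68 in primed libraries (2.66 ± 0.30, adjusted p = 8.67e-06), rose together with ADRA2C, an adrenergic receptor gene (1.48 ± 0.21, adjusted p = 5.18e-05). LINC01896 fell together with SALL3, a zinc finger gene (-0.68 ± 0.24 and -0.59 ± 0.19, adjusted p = 0.0325 and 0.0183), though its call did not hold in 6 of the alternatives. LINC00337, renamed ICMT-DT, rose from 3.31 and 3.96 to 13.1 to 17.1 CPM (2.06 ± 0.21) where ICMT, a methyltransferase gene with which it shares 89 exonic bases on opposite strands, was lower (-0.56 ± 0.10).

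In the other head-to-head pairs with high counts the coding gene alone changed. LINC00205 was at 8.86 to 15.5 CPM in naive and 18.5 and 15.4 in primed libraries, which overlap, and POFUT2, an O-fucosyltransferase gene, was lower in naive cells (-0.70 ± 0.14). LINC00649 and ATP5PO, an ATP synthase subunit gene, were at -0.10 ± 0.20 and 0.33 ± 0.11, and LINC01089 and SETD1B, a histone methyltransferase gene, at -0.03 ± 0.24 and 0.93 ± 0.18. LINC01089 shares 1724 exonic bases with RHOF on the same strand. LINC00909 and ZNF407 were at -0.65 ± 0.27 and -1.14 ± 0.20, and LINC01232 and TM9SF2 at -0.44 ± 0.24 and -0.46 ± 0.11. In each of these 5 pairs only the coding gene passed the threshold, but LINC00909 was close to it (adjusted p = 0.0566) and passed in 8 of 15 alternative fits. Coding genes had higher counts, and with them smaller standard errors, in each pair.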

How the data were processed

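Polyadenylated RNA of 6 cultures was sequenced on a NovaSeq after SMART-Seq Stranded library preparation. The authors trimmed reads with Trim Galore 0.4.4 and cutadapt 1.15 and mapped them with Bowtie2 to Ensembl cDNA and noncoding RNA sequences (GRCh38, release 100). They kept reads with a mapping quality of at least 1 and deposited raw counts per Ensembl identifier. How reads with several equal matches were treated is not stated. Whether strand was used is not given in the sources used here. Mouse feeder reads were not removed by a stated step. Not used were 23 columns that belong to other studies, and 26 spike-in sequences (0 or 1 count a library) were left out.

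The members and lists were chosen with earlier results of these data known. Identifiers that share a name were summed over the whole table. Clone-style names in it have lost their version, so that 21409 identifiers became 11775 names, and the alternative that tested identifiers apart is among those below. Naive and primed libraries (4 and 2) were compared with edgeR 4.0.16 (quasi-likelihood, TMM scaling, filterByExpr by state, Benjamini-Hochberg over 26497 features) in R 4.3.3. DESeq2 1.42.0, limma-voom (limma 3.58.1), other scalings and filters, the parental line as a block and leaving out each library were alternatives. The fit was tested on simulated counts. Values are CPM over TMM-scaled totals. Folds between single libraries add a count of 0.5. Interaction of state and line and the counts of neighbours across fits were added after seeing the data. Named members were the 12 largest changes each way without overlap, the 10 most abundant, members of a list of 20 known LINC genes, the 8 most abundant head-to-head members, the 5 farthest apart between primed libraries and the 5 farthest off in VPA, the genes at the limit and the 5 most abundant without a call. Annotation came from GENCODE 44 and RefSeq (GRCh38.p14), and copies from BLAST 2.17.0. AICAR 1 and AICAR 2 differed by more than counting noise (chi-square of 24.0 per feature, 22.6 to 41.6 for other naive pairs) and so are not 1 library deposited again, which does not make them separate conversions. Summing them was an alternative. Same-line libraries come from 1 parental line each, which pairs naive with primed libraries through the line and not through a replicate number.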

Additional observations from a re-analysis of the deposited data

Results flagged for a closer look

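In 3 of the 54 named members 1 naive library lay far from the other 3, with a gap to its neighbour, as a share of the group's range, above Dixon's 95% critical value. Chance alone marks about 1 group in 20. LINC00467 was at 7.85 CPM in VPA, the lowest, against 11.45 to 11.97 in the others (gap 0.8738 of the range), and without VPA it passed the threshold (adjusted p = 0.0269, against 0.0993 with all libraries). LINC01001 was at 29.96 CPM in AICAR 2, the highest, against 24.1 to 25.004 (0.8426). LINC02609 was at 4.47 CPM in VPA, the highest, against 3.40 to 3.51 (0.8961).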

How the results depend on the processing

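Across 15 alternative fits 55 of the 74 called members passed the threshold in every one that tested them and 0 changed direction, while 14 others passed in at least 1. Members higher and lower numbered 42 and 28 with parental line as a replicate block, which added 3 calls, given above, lost 7 of members not named and moved no count of calls by over 1.5 times, 43 and 32 with both AICAR libraries summed, and 37 to 45 and 24 to 30 with 1 library left out. The median of all features was 0.11 with TMM, 0.21 with library totals and 0.06 with median-ratio factors. With a limit of 1 CPM 154 of 341 LINC genes were higher and 47 lower (median 0.72), with 10 CPM 17 and 9 of 36, and with 3 CPM in both means 13 of 76 were higher (median -0.20). LINC genes of any level were higher in 139 to 236 and lower in 55 to 86 cases with 1 library left out, and lower in 51 with at least 10 counts in every library. At a fold of 3, 2 members differed between primed libraries and 1 in VPA. The sign turned in at least 1 fit for 11 members, none of which passed the threshold with all libraries. Among the named members these were LINC00649 (0.0021 with library totals, -0.29 to 0.10 with 1 library left out), LINC01089 (0.065 with library totals, -0.25 to 0.22 with 1 left out) and LINC01001 (-0.12 to 0.25 with 1 left out). The log2 fold change of LINC02609 was 2.10 (adjusted p = 0.00148) without primed EOS and that of LINC01722 was 1.52 (adjusted p = 0.0287) without primed CA-p38. The cause was not tested. With 2 primed libraries the spread within that state rests on 1 difference, and with 1 left out the other is assumed to vary like the naive libraries.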
